A study of Mus musculus with 6 samples.

Results

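Oxidative phosphorylation genes encode the nuclear subunits of the 5 enzyme complexes that turn respiration into ATP, and 84 of them were followed here among the 19309 genes of the deposited table. They were chosen by symbol (the Nduf genes other than the Ndufaf assembly factors, Sdha to Sdhd, the Uqcr genes, the Cox4i to Cox8 genes and the Atp5 genes) and by a total of at least 10 estimated counts over the 6 libraries. The symbols matched 86 rows. Ndufb4b, with a total of 9.06 counts that all lay in 1 AEW library, and Cox7b2, with a total of 1, fell below the total, and the lowest genes kept were Cox4i2 with 377 counts and Cox6b2 with 397. Complex I contributed 39 genes, complex II 4, complex III 8, complex IV 16 and complex V 17. Some matched symbols name genes that are not fixed subunits, such as Cox7a2l, a factor that joins complexes into supercomplexes, and Ndufa4, which was once placed in complex I and is now placed with complex IV. The subunits encoded in mitochondrial DNA were not analysed here.

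RNA of cheek skin from 3 C57BL/6 mice aged 6 to 8 weeks was sequenced in 6 libraries, 1 for each cheek. In the AEW group the shaved right cheek was wiped for 30 s with equal volumes of acetone and ether, then for 30 s with water, which models dry skin, and in the vehicle group the left cheek of the same mice was wiped with water alone for 60 s. Both were repeated through 12 days, with tissue taken on day 12, and each group holds 3 libraries. The side of the face coincided with the treatment in every mouse, so side and treatment cannot be told apart. The series names an effect of MMP9 in its title, and no allele or agent acting on MMP9 is given in the sample labels.

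Electrons from NADH enter the respiratory chain at complex I and electrons from succinate at complex II, both pass through ubiquinone to complex III, and cytochrome c carries them to complex IV, where oxygen is reduced. Complexes I, III and IV pump protons across the inner mitochondrial membrane, and complex V (ATP synthase) uses the gradient to make ATP. Complex IV has tissue forms of several small subunits: Cox6a2, Cox7a1 and Cox8b are the heart and skeletal muscle forms of Cox6a1, Cox7a2 and Cox8a, which are made in most tissues. Cheek skin is backed by thin sheets of skeletal muscle, and brown fat uses Cox7a1 and Cox8b too.

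The upstream sequences of 5 of these 6 genes are printed below, for the muscle forms Cox7a1 and Cox8b and the widely expressed sister genes. Each runs for the 250 bases before the RefSeq start on GRCm38.p6, 5′ to 3′ on the gene's strand, with CG dinucleotides in capitals, since CG-rich promoters are typical of genes used in all tissues. Cox7a1 lies at chr7:30183921-30184170 on the plus strand, Cox8b at chr7:140900447-140900696, Cox6a1 at chr5:115348959-115349208, Cox7a2 at chr9:79759854-79760103 and Cox8a at chr19:7217617-7217866, these 4 on the minus strand. Cox6a2 is named only.
Cox7a1: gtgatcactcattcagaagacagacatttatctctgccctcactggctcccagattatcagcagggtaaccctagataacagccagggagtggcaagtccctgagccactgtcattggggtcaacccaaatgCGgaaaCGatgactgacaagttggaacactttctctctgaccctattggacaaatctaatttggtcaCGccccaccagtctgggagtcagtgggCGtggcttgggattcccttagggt
Cox8b: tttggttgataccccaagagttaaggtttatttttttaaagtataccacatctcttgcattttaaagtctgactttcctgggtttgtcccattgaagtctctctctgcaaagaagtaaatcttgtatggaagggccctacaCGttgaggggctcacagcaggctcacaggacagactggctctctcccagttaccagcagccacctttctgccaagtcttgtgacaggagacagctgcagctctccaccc
Cox6a1: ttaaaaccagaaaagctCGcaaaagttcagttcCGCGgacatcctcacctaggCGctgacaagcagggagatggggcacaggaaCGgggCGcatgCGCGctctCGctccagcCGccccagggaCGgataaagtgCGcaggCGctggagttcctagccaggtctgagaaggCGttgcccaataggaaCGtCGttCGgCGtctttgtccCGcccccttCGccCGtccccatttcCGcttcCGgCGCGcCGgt
Cox7a2: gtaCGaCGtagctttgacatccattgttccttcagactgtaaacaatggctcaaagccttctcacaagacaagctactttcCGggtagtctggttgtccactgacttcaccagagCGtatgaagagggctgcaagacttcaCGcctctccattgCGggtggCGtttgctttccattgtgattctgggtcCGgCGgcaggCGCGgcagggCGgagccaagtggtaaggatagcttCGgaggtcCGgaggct
Cox8a: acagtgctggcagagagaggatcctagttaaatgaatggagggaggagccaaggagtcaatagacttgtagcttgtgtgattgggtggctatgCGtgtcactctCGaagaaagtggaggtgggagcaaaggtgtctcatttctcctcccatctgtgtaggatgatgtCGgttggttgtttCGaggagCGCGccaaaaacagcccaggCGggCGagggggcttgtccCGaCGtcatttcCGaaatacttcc

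The Cox8b window held 1 CG dinucleotide and that of Cox7a1 held 4, against 26 for Cox6a1, 14 for Cox7a2 and 11 for Cox8a. RefSeq start windows were found for 68 of the 84 genes, 73 windows in all, with a median of 14 CG dinucleotides (quartiles 10 and 20). No other gene with a window had fewer than Cox7a1, and Ndufc2 held 4 as well. The median over the windows of all tested genes was also 14. Each of 4 motifs was searched on both strands in the full 300 bases, 250 before and 50 after the start, and a match is a description of the letters and not evidence of binding. The NRF-1 motif (GCGCA, any base, then GCGC), named for a factor known to act on respiratory genes, was in 18 of 73 windows (24.7%), in 8.42% of the 15220 windows of tested genes and in 4.60% of all 32851 windows. The ETS motif CCGGAAG was in 17 of 73 (23.3%), against 15.0% for tested genes and 8.86% for all. The E-box CAGCTG, the kind of site that muscle regulators such as MyoD bind, was in 6 of 73 (8.22%), against 16.1% and 16.3%. The TATAAA box was in 8 of 73 (10.96%), against 8.43% and 13.6%. Cox8b held the E-box at -19 and at 17 and TATAAA at 5, counted from the start as 1. Cox6a1 held the NRF-1 motif at -162 and -117 and the ETS motif at -16, Cox8a the ETS motif at -5 and 33, and the Cox7a1 and Cox7a2 windows held none of the 4.

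Library totals ran from 18449145 to 18522816 estimated counts in the vehicle group and from 19120777 to 19506462 in the AEW group, and no library stood apart in depth. In the counts themselves the AEW library of mouse 1 stood apart: chi-square per degree of freedom was 68.7 and 57.2 against the other AEW libraries, which differed from each other by 19.6, and vehicle pairs by 19.1 to 26.5. Without that library 25 of the 84 oxidative phosphorylation genes were lower, in place of 28. Marker lists of tissues in the cheek were read beside all 15109 tested genes, of which 6.8% were called lower and 4.85% higher. Of 25 tested skeletal muscle markers, which include fast myosin and troponin genes, 21 were lower under AEW with edgeR, their summed level being 52263 to 71060 TPM (the authors' transcript level, scaled for gene length and depth) in the vehicle libraries and 21871 to 29605 in the AEW libraries; without the vehicle library of mouse 1, of mouse 3 or the AEW library of mouse 2, 9, 6 and 9 were called. Of 10 keratinocyte markers 3 were higher (summed TPM 10359 to 16058 against 17651 to 22644), of 10 white fat markers 2 were lower (5147 to 8456 against 3815 to 4385), and of 8 endothelial markers 3 were lower (237.53 to 315.17 against 185.78 to 202.44). With the mouse as a block, 3.89% of tested genes were lower and 1.99% higher. The marker calls were then 21 muscle, 3 keratinocyte, 0 white fat and 1 endothelial. Without the vehicle library of mouse 1 or of mouse 3 no keratinocyte, white fat or endothelial marker was called. Of 8 fibroblast markers 1 was higher (4433 to 5889 against 4358 to 5612), of 9 sebocyte markers 1 was higher (3613 to 4543 against 3577 to 4799), of 8 macrophage markers 0 were called (514 to 1243 against 635 to 1516) and of 5 erythroid markers 0 were (3143 to 4778 against 1665 to 3090), all with overlapping ranges except the last. The part of these markers in the results below was not tested. In bulk tissue, fewer cells of a type and less RNA per cell cannot be told apart.

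Most oxidative phosphorylation genes had lower estimates under AEW, and the 3 muscle isoforms of complex IV lay far below the rest. Of the 84 genes, 28 were lower and 0 higher by edgeR's quasi-likelihood test at an adjusted p under 0.05, so 33.3% of them were called lower where 6.8% of the 15109 tested genes were called lower and 4.85% higher. The 1 gene above 0 at an unadjusted p under 0.05 was Cox6a1, and DESeq2 also called 0 higher. The log2 fold change (AEW minus vehicle) was below 0 for 81 of 84 genes, with a median of -0.33, while it was below 0 for 48.4% of all tested genes, with a median of 0.01. In 64 genes (76.2%) every AEW library lay below every vehicle library in CPM (counts scaled for depth, here with TMM factors), which held for 19.5% of tested genes, and Cox6a1 alone had every AEW library above, beside 17.4% of tested genes. On the deposited TPM scale the first count was 54 of 84, beside 14.9% of tested genes.

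The summed level of the 84 genes was 39742, 37823 and 41213 TPM in the vehicle libraries of mice 1, 2 and 3 and 33551, 32177 and 32916 TPM in the AEW libraries. The groups did not overlap: these genes took 3.96% of all transcripts under vehicle and 3.29% under AEW. Within the mice, the median log2 ratio over the 84 genes was -0.36, -0.20 and -0.44, with 81, 71 and 79 genes below 0. The direction was thus shared by the mice, and mouse 2 had the smallest shift. The single calls depended on the libraries: 1 gene was called lower without the vehicle library of mouse 1 or of mouse 3, 5 without the AEW library of mouse 2 and 10 without that of mouse 3, while all genes called lower fell to 148, 117, 258 and 654. With the mouse as a block 10 were lower (3.89% of all tested genes were, and 1.99% higher), all of them among the 28: Cox6a2, Cox7a1, Cox8b, Sdhb, Ndufa5, Ndufa6, Ndufa13, Ndufb4, Ndufs4 and Ndufs7.

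**Figure D1:**
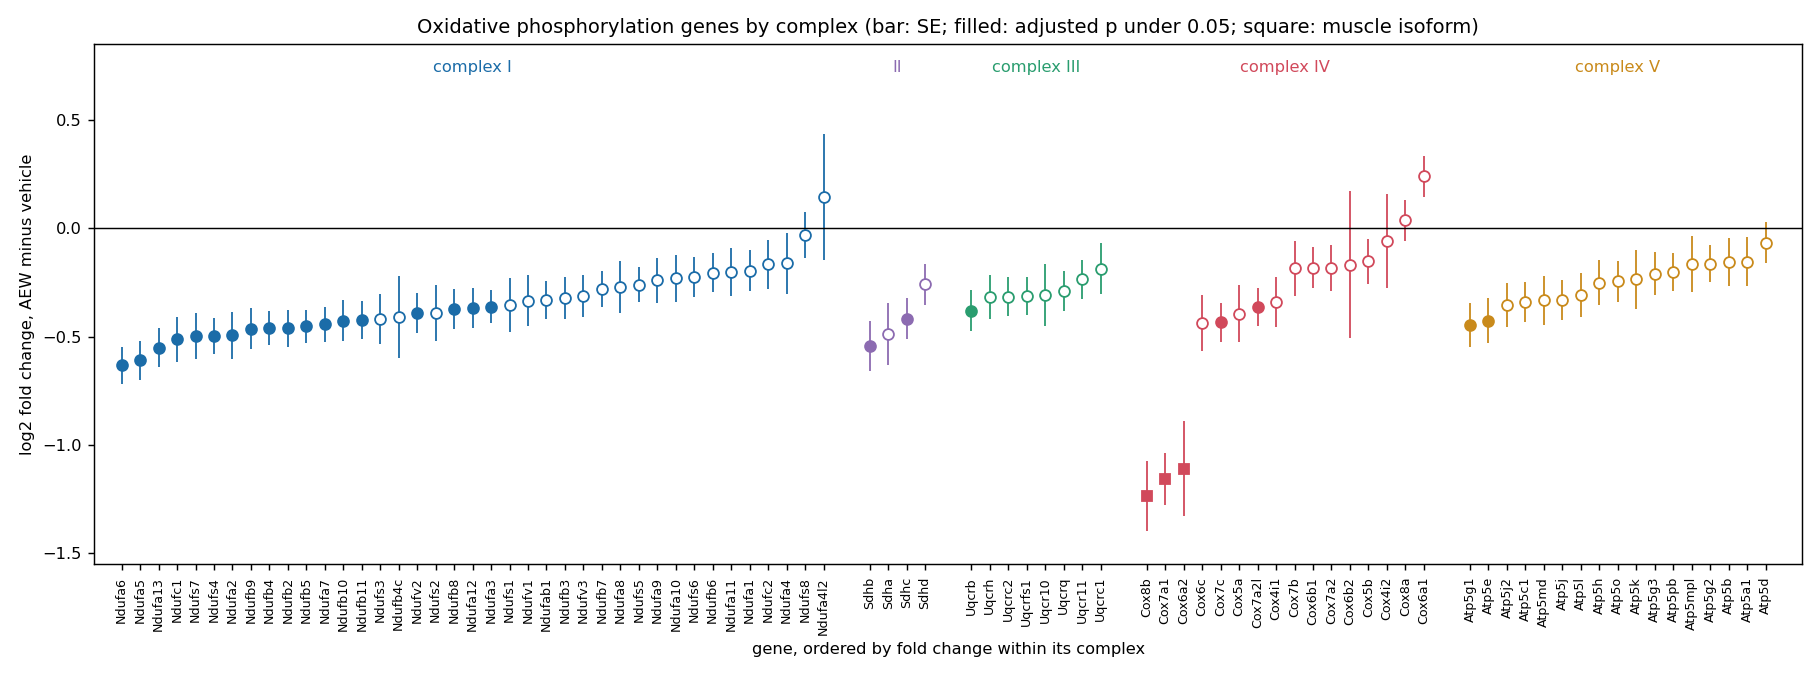
Log2 fold change (AEW minus vehicle, y axis) of the 84 genes, ordered within their complex along the x axis, with bars for the SE, filled symbols for an adjusted p under 0.05 and squares for the muscle isoforms. The squares lie at -1.11 to -1.23, and every other gene lies between -0.63 and 0.24.

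The muscle isoforms of complex IV fell, and each ended below its sister gene in mean TPM. Cox6a2 (NCBI gene 12862) was at 1127, 1062 and 1387 TPM in the vehicle libraries of mice 1, 2 and 3 and at 496, 448 and 791 TPM in the AEW libraries. Its log2 fold change was -1.11 ± 0.22 (SE), with an adjusted p of 0.0269 by edgeR, and of 0.0182 in the fit blocked by mouse. The protein is a regulatory subunit of the enzyme, and all AEW libraries were below all vehicle libraries, with mouse 3 the highest in both groups.

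Cox7a1 (gene 12865) was at 374, 346 and 404 TPM under vehicle and at 157, 166 and 202 TPM under AEW. Cox7a1 fell by 1.16 ± 0.12 (SE) on the log2 scale, at an adjusted p of 0.00692 by edgeR and 0.0152 with the block. Cox7a1 is the muscle form of a small structural subunit, and its groups stayed well apart. Cox8b (gene 12869), the muscle form of another small subunit, was at 677, 622 and 774 TPM under vehicle and at 260, 279 and 380 TPM under AEW. The fall on the log2 scale (-1.23 ± 0.16, SE) had an adjusted p of 0.0109 by edgeR and 0.0156 with the block. Here too the highest library of each group came from mouse 3.

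Of the 6 edgeR fits that each left out 1 library, Cox7a1 was called lower in 6, Cox8b in 4 and Cox6a2 in 3. Cox8b had an adjusted p of 0.0506 without the vehicle library of mouse 1 and 0.0548 without that of mouse 3. For Cox6a2 the adjusted p was 0.085 and 0.118 without those libraries, and 0.0719 without the AEW library of mouse 2. The log2 fold change of Cox6a2 lay between -0.99 and -1.14 in those 3 fits and between -0.99 and -1.38 over all 6. Over the 6 fits it lay between -1.12 and -1.39 for Cox8b and between -1.08 and -1.25 for Cox7a1.

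None of the sister genes passed the test. Cox6a1 (gene 12861), the form made in most tissues, was at 749, 736 and 704 TPM under vehicle and at 867, 902 and 918 TPM under AEW. Cox6a1 had a log2 fold change of 0.24 ± 0.09 (SE) and an adjusted p of 0.136, and its groups did not overlap although the gene did not pass the test. Cox7a2 (gene 12866) was at 296, 280 and 295 TPM under vehicle and at 277, 279 and 242 TPM under AEW, with a log2 fold change of -0.18 ± 0.11 (SE) and an adjusted p of 0.289. Its mouse 2 libraries were nearly level. Cox8a (gene 12868) was at 937, 868 and 859 TPM under vehicle and at 1016, 912 and 919 TPM under AEW, with a log2 fold change of 0.04 ± 0.09 (SE) and an adjusted p of 0.825. Its groups overlapped.

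**Figure D2:**
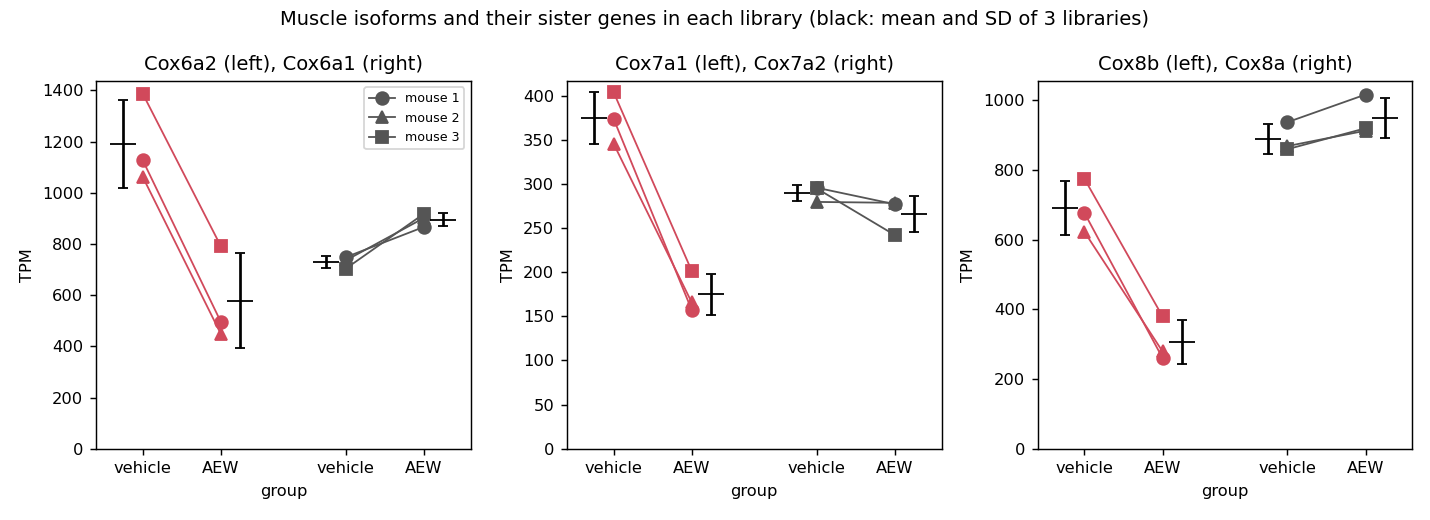
TPM (y axis, from 0) of each muscle isoform (red) and its sister gene (grey) in the vehicle and AEW libraries (x axis), with a line for each mouse and black marks for the mean and SD of 3 libraries. Every red line falls, and Cox6a1 lies at 704 to 749 TPM under vehicle and 867 to 918 TPM under AEW.

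Within each pair, the muscle form made up a smaller share of the 2 transcripts under AEW. Cox6a2 took 61.8% ± 3.94 (SD, n = 3) of the Cox6a pair under vehicle and 38.6% ± 6.82 under AEW. Cox7a1 took 56.3% ± 1.33 of its pair with Cox7a2 under vehicle and 39.6% ± 5.03 under AEW. Cox8b took 43.7% ± 3.21 of its pair with Cox8a under vehicle and 24.4% ± 4.49 under AEW. So the muscle form was the larger in vehicle skin for Cox6a and Cox7a, and the smaller in AEW skin for all 3 pairs. The difference in the log2 ratio of muscle form to sister (AEW minus vehicle) was -1.38 for Cox6a2, with within-mouse values of -1.40, -1.54 and -1.19. For Cox7a1 it was -0.98, with -1.15, -1.06 and -0.72. For Cox8b it was -1.28, with -1.49, -1.23 and -1.12. Each of these 3 ratios had a two-sided exact permutation p of 0.1 (adjusted over the 3, 0.1), the smallest that 3 libraries against 3 allow, and an exact sign-flip p of 0.25 over the 3 mice, so no ratio could pass a threshold of 0.05 in this design.

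In each mouse the 3 muscle isoforms were the 3 lowest of the 84 genes by log2 ratio. The next lowest was Ndufb4c at -0.82 in mouse 1, Ndufa6 at -0.53 in mouse 2 and Ndufa5 at -0.80 in mouse 3, where the nearest muscle isoform, Cox6a2, was at -0.90. Their fold changes lay near the median of the skeletal muscle markers (-1.33, range -1.97 to -0.86 over 25 genes). Of 8 brown fat markers tested 2 were lower (Cpt1b at -0.91 and Ppargc1a at -0.77), Dio2 was higher (1.80) and 6 were below 0. Of all tested genes 6.8% were lower, 4.85% higher and 48.4% below 0. With the mouse as a block 1 of the 8 was lower and 1 higher, beside 3.89% and 1.99% of tested genes. Without the vehicle library of mouse 1 or 3 or the AEW library of mouse 2, 0 of the 8 were lower. The 10 listed brown fat markers summed to 296 to 327 TPM under vehicle and 257 to 419 TPM under AEW, most of it Cidea (237 to 284 and 224 to 375 TPM), while Ucp1, the marker that defines the tissue, was at 0.22 TPM or less in every library. The part of the muscle and brown fat markers in these values was not tested.

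Of the other 13 genes of complex IV 2 were lower (15.4%, beside 6.8% of tested genes), 0 with the mouse as a block. The estimate was below 0 for 11, and the median over the 13 was -0.18. With the muscle isoforms, complex IV had 5 genes called lower (31.2%). That count was 1 without the vehicle library of mouse 1 or of mouse 3, and 2 without the AEW library of mouse 2. It was 3 without the vehicle library of mouse 2 or the AEW library of mouse 3. Cox7c, a small structural subunit and the most abundant gene of the complex, was at 1535, 1485 and 1459 TPM under vehicle and at 1191, 1135 and 1126 TPM under AEW. Cox7c fell by 0.43 ± 0.09 (SE) on the log2 scale, at an adjusted p of 0.0308, or 0.0641 with the mouse as a block. Its groups were clearly separate. Cox7a2l, the supercomplex factor, was at 388, 366 and 381 TPM under vehicle and at 318, 301 and 299.9 TPM under AEW, again without overlap. The fall on the log2 scale (-0.36 ± 0.09, SE) had an adjusted p of 0.044, or 0.0916 with the block, and it missed the threshold in each of the 6 fits without 1 library (up to 0.17).

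Cox4i1 encodes the main form of the largest nuclear subunit and Cox4i2 its lung and low-oxygen form. Cox4i1 was at 944, 794 and 990 TPM under vehicle and at 762, 693 and 795.0 TPM under AEW, which gave a log2 fold change of -0.34 ± 0.12 (SE) and an adjusted p of 0.101. Cox4i2 was at 9.05, 6.91 and 8.14 TPM under vehicle and at 8.75, 6.50 and 9.03 TPM under AEW, with a log2 fold change of -0.06 ± 0.22 (SE) and an adjusted p of 0.88. Cox4i2 was thus a trace form in both groups, and its estimate changed sign between settings. Cox6b2, known as a testis form, was at 16.7, 13.1 and 9.95 TPM under vehicle and at 18.6, 8.61 and 9.08 TPM under AEW, with overlapping groups, an adjusted p of 0.773 and a sign that also changed between settings. Outside the muscle isoforms, the summed level of complex IV was 8300 ± 280 TPM (SD, n = 3) under vehicle and 7442 ± 198 TPM under AEW.

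Complex I, with 39 of the 84 genes, held most of the calls. Of its 39 genes 18 were lower (46.2%, beside 6.8% of tested genes). The log2 fold change was below 0 for 38, with a median of -0.37. In 31 (79.5%) every AEW library lay below every vehicle library in CPM, beside 19.5% of tested genes. With the mouse as a block 6 were lower, as were 3.89% of tested genes. Without the vehicle library of mouse 1 or of mouse 3, 0 were called, and 3 and 7 were without the AEW libraries of mice 2 and 3. The summed level was 11700 ± 460 TPM (SD, n = 3) under vehicle and 9523 ± 224 TPM under AEW, a ratio of 0.814.

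Ndufa6, an accessory subunit that binds the mitochondrial acyl carrier protein, was at 563, 518 and 524 TPM under vehicle and at 375, 347 and 357 TPM under AEW. Its log2 fold change was -0.63 ± 0.09 (SE), with an adjusted p of 0.0119 by edgeR and 0.0315 with the block. No other gene outside the muscle isoforms had a lower estimate. Ndufa5, an accessory subunit of the matrix arm, was at 278, 280.4 and 305 TPM under vehicle and at 207, 194 and 186 TPM under AEW. Ndufa5 fell by 0.61 ± 0.09 (SE) on the log2 scale, at an adjusted p of 0.0135 and 0.0442 with the block. Ndufa13, also known as GRIM-19 and a part of the membrane arm, was at 253, 232 and 259 TPM under vehicle and at 184, 166 and 179 TPM under AEW. The fall on the log2 scale (-0.55 ± 0.09, SE) had an adjusted p of 0.0165 and 0.0425 with the block. None of the 3 had overlapping groups.

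The 7 nuclear core subunits carry the flavin and the iron-sulphur clusters that pass electrons from NADH to ubiquinone. Of these 2 were lower (28.6%, median -0.39), against 16 of the other 32 genes (50.0%, median -0.36), most of them accessory subunits. Among all tested genes 6.8% were lower. With the block 1 core subunit and 5 of the others were lower, beside 3.89% of tested genes. The difference between the core subunits and the others was not tested. Ndufs7, which holds the last cluster before ubiquinone, was at 300.0, 280 and 317 TPM under vehicle and at 225, 188 and 249 TPM under AEW. Ndufs7 fell by 0.50 ± 0.11 (SE) on the log2 scale, at an adjusted p of 0.0321 and 0.0428 with the block. Ndufv2, a cluster protein of the NADH-binding module, had a log2 fold change of -0.39 ± 0.09 (SE) and an adjusted p of 0.0431, or 0.0855 with the block. Ndufs8, another cluster protein, was at 233, 216 and 218 TPM under vehicle and at 252, 225 and 201 TPM under AEW, with a log2 fold change of -0.03 ± 0.11 (SE) and an adjusted p of 0.868. Its sign changed between settings, and on the TPM scale its estimate was above 0, one of 5 genes for which this was so, the others being Cox4i2, Ndufa4l2, Cox6a1 and Cox8a.

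Ndufs4, an accessory subunit of the matrix arm whose loss causes Leigh syndrome, was at 103, 93.7 and 98.5 TPM under vehicle and at 74.2, 69.1 and 74.8 TPM under AEW. The fall on the log2 scale (-0.50 ± 0.08, SE) had an adjusted p of 0.0178 and 0.0493 with the block. The Ndufb genes, which encode subunits of the membrane arm, gave 7 of the 18 calls: Ndufb2, Ndufb4, Ndufb5, Ndufb8, Ndufb9, Ndufb10 and Ndufb11 between -0.37 and -0.46. Ndufc1, of the same arm, was at -0.51. The remaining calls were Ndufa2 at -0.49, Ndufa7 at -0.44, Ndufa12 at -0.37 and Ndufa3 at -0.36. Reads of Ndufb4 and its near copies Ndufb4b and Ndufb4c could be split between them, so the value of Ndufb4 (-0.46, adjusted p 0.0181) is uncertain.

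Ndufa4, the most abundant gene under the Nduf names, was at 1136, 1098 and 1161 TPM under vehicle and at 908, 1189 and 1050 TPM under AEW. Its groups overlapped, because mouse 2 ran the other way, and its log2 fold change was -0.16 ± 0.14 (SE) and an adjusted p of 0.478. Ndufa4l2, a low-oxygen-induced relative of Ndufa4, was at 115, 171 and 146 TPM under vehicle and at 98.2, 186 and 208 TPM under AEW. Ndufa4l2 had a log2 fold change of 0.14 ± 0.29 (SE) and an adjusted p of 0.773, and the mice disagreed in direction.

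All 4 subunits of complex II, which is also the succinate dehydrogenase of the citric acid cycle, had every AEW library below every vehicle library. That held for 19.5% of tested genes. Sdhb, the iron-sulphur subunit, was at 299.9, 264 and 334 TPM under vehicle and at 228, 188 and 227 TPM under AEW. Sdhb fell by 0.54 ± 0.12 (SE) on the log2 scale, at an adjusted p of 0.0327, or 0.0445 in the blocked fit. Sdhc, a membrane anchor, was at 264, 249 and 289 TPM under vehicle and at 221, 189 and 217 TPM under AEW. Its log2 fold change was -0.42 ± 0.09 (SE), with an adjusted p of 0.0369, or 0.0651 with the block. Sdha, the flavoprotein that oxidises succinate, was at 157, 148 and 199.8 TPM under vehicle and at 124, 111 and 141 TPM under AEW. Sdha had a log2 fold change of -0.49 ± 0.14 (SE) and an adjusted p of 0.0671. Sdhd, the other anchor, was at 124, 113.7 and 129.8 TPM under vehicle and at 113.6, 104 and 102 TPM under AEW, with a log2 fold change of -0.26 ± 0.09 (SE) and an adjusted p of 0.118. Thus 2 of 4 passed the test (50.0%, beside 6.8% of tested genes called lower). Without the vehicle library of mouse 1 or 3 or the AEW library of mouse 2 or 3, 0 did.

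Complex III passes electrons from ubiquinol to cytochrome c. All 8 genes were below 0 (median -0.31, range -0.38 to -0.19). In CPM 6 of the 8 had every AEW library below every vehicle library, beside 19.5% of tested genes. Of the 8, 1 was lower, beside 6.8% of tested genes, so a single call is little above that share. The count went to 0 with the block, with no count filter and in each fit without 1 library. That gene, Uqcrb, encodes a subunit near the ubiquinone site and was the most abundant of the 8, at 826, 820.2 and 802 TPM under vehicle and at 662, 670.4 and 623 TPM under AEW. Uqcrb fell by 0.38 ± 0.09 (SE) on the log2 scale, at an adjusted p of 0.0462, or 0.0857 with the block. Uqcrfs1, the Rieske iron-sulphur protein, had a log2 fold change of -0.31 ± 0.09 (SE) and an adjusted p of 0.0603. Uqcrc2, a core protein, had -0.32 ± 0.09 (SE) and an adjusted p of 0.0683. The narrow range shows that these 8 genes had much the same estimate, with a summed level of 3755 ± 186 TPM (SD, n = 3) under vehicle and 3176 ± 8.55 TPM under AEW.

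Complex V is the enzyme that makes the ATP. All 17 genes were below 0, with a median of -0.24, and 14 had separate groups in CPM (82.4%, beside 19.5% of tested genes). Among these, the TPM groups of Atp5a1, Atp5b, Atp5g2, Atp5g3 and Atp5h overlapped. Of the 17, 2 were lower (11.8%, beside 6.8% of tested genes), 0 with the block and 1 with no count filter. Without 1 library the count was 0 to 2, being 0 without the vehicle library of mouse 1 or 3 or the AEW library of mouse 2 or 3, and 1 without the vehicle library of mouse 2. Atp5g1 is one of 3 genes for the same ring protein, the c subunit through which protons pass, so its reads may be shared with Atp5g2 and Atp5g3. It was at 639, 703 and 771 TPM under vehicle and at 575, 476 and 564 TPM under AEW. The fall on the log2 scale (-0.45 ± 0.10, SE) had an adjusted p of 0.0373, or 0.0681 with the block. Atp5g2 (-0.16) and Atp5g3 (-0.21) did not pass the test.

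Atp5e, the epsilon subunit of the central stalk, was at 676, 573 and 648 TPM under vehicle and at 532, 462 and 478 TPM under AEW. Atp5e fell by 0.43 ± 0.10 (SE) on the log2 scale, at an adjusted p of 0.0431, or 0.0751 with the block. Atp5c1, the gamma subunit of the same stalk, had a log2 fold change of -0.34 ± 0.09 (SE) and an adjusted p of 0.0587. Atp5b, the catalytic beta subunit and the most abundant gene of the complex, was at 1210.0, 1151 and 1350.0 TPM under vehicle and at 1203, 1075 and 1197 TPM under AEW. Its TPM groups overlapped, and its log2 fold change was -0.16 ± 0.11 (SE) and an adjusted p of 0.381. The alpha subunit gene Atp5a1 had much the same estimate, -0.15 ± 0.11 (SE), with an adjusted p of 0.407. The whole complex summed to 12720 ± 483 TPM (SD, n = 3) under vehicle and 11020 ± 405 TPM under AEW.

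Of 13 genes that carry oxygen, electrons, ADP, ATP or phosphate to and from the chain, 7 were lower and 2 higher (53.8% lower, beside 6.8% of tested genes), or 6 and 2 with the mouse as a block. Without 1 library 0 to 6 were lower and 0 to 2 higher, with 1, 0 and 2 lower and 0 higher without the vehicle library of mouse 1, that of mouse 3 and the AEW library of mouse 2. Mb, the oxygen store of muscle, had the smallest p, with a log2 fold change of -1.22 ± 0.16 (SE) and an adjusted p of 0.0106. Both Mb and Ckm are also among the skeletal muscle markers counted above. Among the lower genes were also the cytosolic muscle kinases Ckm (-1.31) and Ak1 (-1.10) and the widely expressed outer-membrane channels Vdac1 (-0.43) and Vdac3 (-0.53), while Ckb, the general counterpart of Ckm, was at -0.08 with an adjusted p of 0.826. A muscle and a general form differed in direction in 2 pairs of this list, the pairs that held both higher genes. Slc25a4 and Slc25a5 encode the muscle-rich and the widely expressed ADP/ATP carriers of the inner membrane. Slc25a4 was at 1225, 1130 and 1391 TPM under vehicle and at 637, 582 and 772 TPM under AEW, with a log2 fold change of -0.97 ± 0.14 (SE) and an adjusted p of 0.0123. Slc25a5 was at 417, 512 and 440 TPM under vehicle and at 711, 697 and 658 TPM under AEW, with a log2 fold change of 0.54 ± 0.11 (SE) and an adjusted p of 0.0298. The muscle carrier thus fell and the other rose, and the log2 ratio of the first to the second went from 1.45 to -0.06.

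Mitochondrial creatine kinase, which loads the energy of ATP onto creatine, did likewise. Ckmt2, the muscle form, was at 272, 269.6 and 359 TPM under vehicle and at 124, 125 and 178 TPM under AEW, with a log2 fold change of -1.14 ± 0.18 (SE) and an adjusted p of 0.0154. Ckmt1, the general form, was at 64.5, 113 and 91.9 TPM under vehicle and at 153, 192 and 180.3 TPM under AEW, with a log2 fold change of 0.92 ± 0.21 (SE) and an adjusted p of 0.0354. All 4 genes were called with the mouse as a block as well. Without the vehicle library of mouse 1 or of mouse 3, none of the 4 passed the test, and without the AEW library of mouse 2 only Slc25a4 did. The 7 pairs beyond complex IV were chosen after their values were seen, and in 6 of them every vehicle ratio was above every AEW ratio, the exception being Pygm and Pygl, the muscle and liver glycogen phosphorylases.

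**Figure D3:**
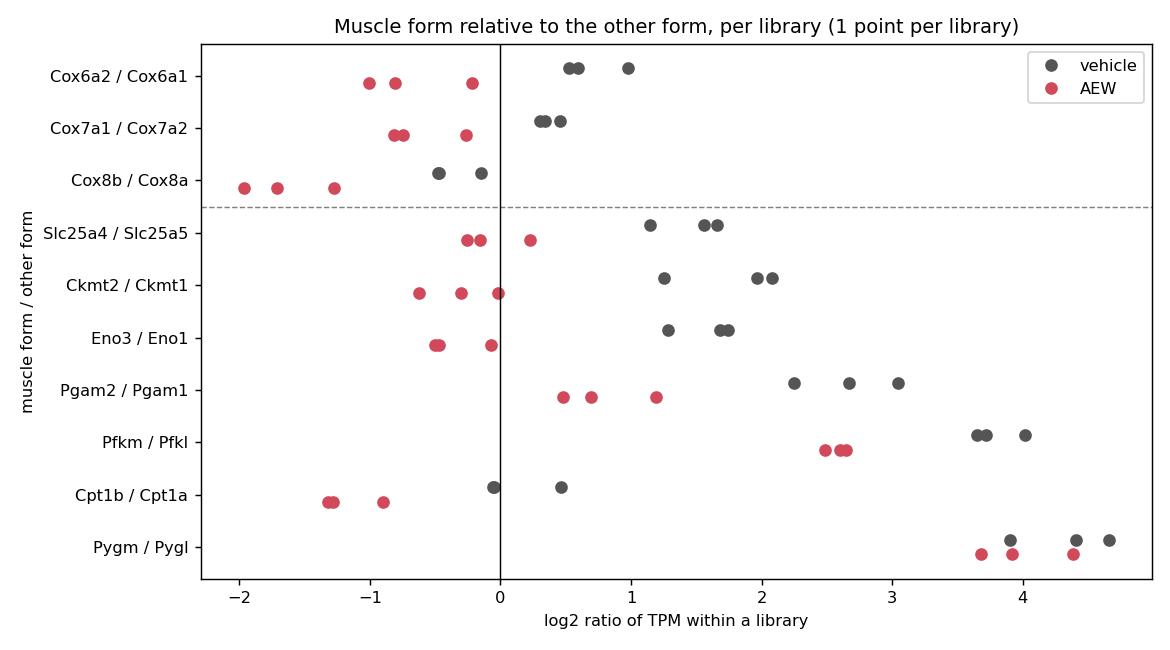
Log2 ratio of the TPM of a muscle form to that of the other form within a library (x axis), 1 point per library, for the 3 complex IV pairs above the dashed line and 7 other pairs below it. The AEW points lie to the left of all vehicle points in every pair but Pygm and Pygl.

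Other mitochondrial genes were read beside the same background of 6.8% called lower. Of 46 assembly factors tested, 3 were lower (6.52%, near the background), 0 were higher and 35 were below 0, with a median of -0.16, and 0 were called with the block. The lowest p belonged to Cox17, the copper carrier for complex IV, with -0.53 ± 0.09 (SE) and an adjusted p of 0.02, or 0.0551 with the block. Surf1, another complex IV factor, had -0.39 ± 0.08 (SE) and 0.0335, or 0.0745 with the block. Another list held 19 genes of the citric acid cycle and of pyruvate dehydrogenase, which feeds it, with its kinases. Of these 8 were lower (42.1%) and all 19 below 0 (median -0.35), with 4 called with the block. The calls were Idh3a, Idh3b and Sucla2 of the cycle, and Pdha1, Pdhb, Dlat, Pdk2 and Pdk4 of pyruvate dehydrogenase and its kinases. Idh3b, a subunit of isocitrate dehydrogenase, had -0.57 ± 0.10 (SE) and an adjusted p of 0.0223. Pdk4, a kinase that shuts off pyruvate dehydrogenase, had -1.26 ± 0.24 (SE) and 0.0254. This mixed list thus had a median like that of the subunits, although the difference between the lists was not tested.

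Of 18 genes for fatty acid oxidation in mitochondria 6 were lower (33.3%), 17 were below 0 and the median was -0.27, with 2 called with the block. Acadm, the medium-chain acyl-CoA dehydrogenase, had -0.57 ± 0.09 (SE) and an adjusted p of 0.017. Eci1, an enoyl-CoA isomerase, had -0.67 ± 0.12 (SE) and 0.0209, or 0.0532 with the block. Of 19 regulators of mitochondrial genes 3 were lower (15.8%) and 1 higher, with a median of -0.07, and 1 was lower with the block. Ppara, a receptor that drives fatty acid oxidation genes, was at 6.36, 7.45 and 7.53 TPM under vehicle and at 4.62, 4.70 and 4.91 TPM under AEW, with -0.66 ± 0.10 (SE) and an adjusted p of 0.015. Ppargc1a, the coactivator PGC-1α, was at 4.36, 4.14 and 4.13 TPM under vehicle and at 2.46, 2.29 and 3.75 TPM under AEW, with -0.77 ± 0.16 (SE) and an adjusted p of 0.0298, or 0.0553 with the block. In each of these 4 lists 0 or 1 gene was called lower without the vehicle library of mouse 1 or of mouse 3 or the AEW library of mouse 2, and 0 to 2 without the AEW library of mouse 3. Without the vehicle library of mouse 2, 1 assembly factor, 1 regulator and 4 genes of the cycle and pyruvate dehydrogenase list were called lower. Without the AEW library of mouse 1, 6 assembly factors and 5 genes of that list were.

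**Figure D4:**
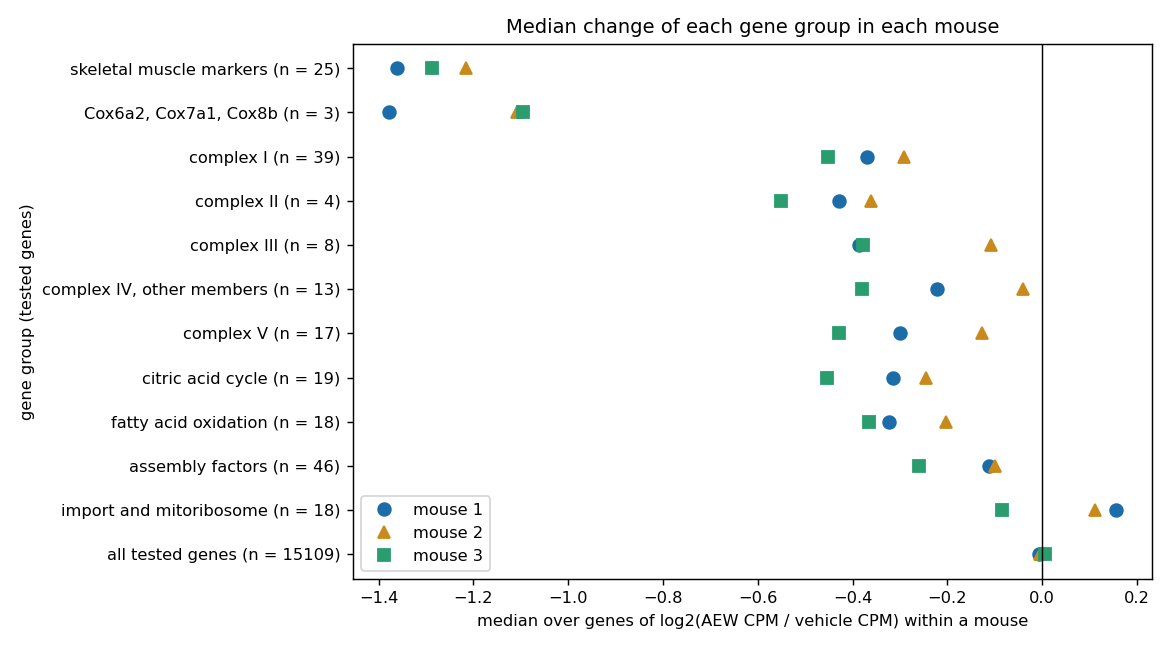
Median over the tested genes of a group of the log2 ratio of AEW to vehicle CPM within a mouse (x axis), with 1 symbol per mouse and the groups along the y axis. Skeletal muscle markers and the muscle isoforms lie below -1 in all 3 mice, the complexes between -0.55 and -0.04, and all tested genes near 0. The citric acid cycle group includes pyruvate dehydrogenase genes and its kinases.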

How the data were processed

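The deposited table gives estimated counts, FPKM and TPM for 19309 genes in 6 libraries, per the file headers. The authors made the FPKM and TPM values before deposit, and 53.9% to 57.2% of the estimated counts in a library were fractional. The submitters' processing notes name HISAT and GRCm39; the counter, the annotation and any use of strand were not given in the sources used here. Overlapping genes can therefore not be separated. FPKM was not tested.

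Estimated counts were rounded, filtered with edgeR's filterByExpr (minimum count 10), which kept 15109 genes with at least 99.94% of each library's counts and all 84 oxidative phosphorylation genes, and scaled by TMM (factors 0.973 to 1.05). The test was edgeR 4.0.16's quasi-likelihood test in R 4.3.3, group as the single term, with Benjamini-Hochberg adjustment over all tested genes at 0.05. SEs were computed from each fold change and F statistic. TPM levels are the authors' values, with the SD over 3 libraries. Within a group the libraries come from separate mice, and every pair differed by more than sampling noise (chi-square 19.1 to 68.7 per degree of freedom). The labels give the mouse of each library, so left and right cheeks pair by animal; deviations of the same mouse's libraries correlated at -0.244, -0.165 and -0.246. Isoform ratios of TPM were compared by exact permutation of the 6 libraries. The fit was tested on simulated data, where it recovered 19.4% of 1.5-fold, 71.6% of 2-fold and 95.5% of 4-fold changes. Of its 130 calls 6 were false. Changes of 1.5-fold were thus mostly missed there, so a gene not called here may still differ.

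Named genes were drawn from the muscle isoforms and their sisters, the 3 smallest p-values and the highest TPM of each complex, a few known isoforms, every gene called, and the 2 smallest p-values of each other list; other genes named were chosen after their values were seen. The genes, lists, motifs and pairs were chosen with earlier results of these data known. Some genes stood in several lists, such as Cpt1b (brown fat and fatty acid oxidation) and Ppargc1a (brown fat and regulators). Alternatives were DESeq2 1.42.0, its size factors, no count filter, limma 3.58.1 on log2(TPM + 1) and log2(TPM + 0.1), the mouse as a block and leaving out each library. Promoter windows came from RefSeq on GRCm38.p6, another build than that of the counts, matched by gene number. Symbols follow the deposited table.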

Additional observations from a re-analysis of the deposited data

How the results depend on the processing

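Over all settings tried, 78 to 81 of the 84 genes kept an estimate below 0, their median log2 fold change lay between -0.27 and -0.37, and 0 were called higher, while the number called lower varied and the cause was not tested. Of the 84 genes, 45 were lower with DESeq2, 10 with the mouse as a replicate block and 14 with limma on log2(TPM + 1) and on log2(TPM + 0.1), and 1 to 25 without 1 library. For complex I these were 6 with the block, 11 and 11 with limma and 0 to 17 without 1 library; for complex II 1, 0 and 0, and 0 to 2; for complex IV 3, 3 and 3, and 1 to 4. For complex III they were 5 with DESeq2, 0 with no count filter, 0 with the block, 0 and 0 with limma and 0 to 0 without 1 library; for complex V 6, 1, 0, 0 and 0, and 0 to 2. Of all tested genes, 588 were lower with the block, 666 and 666 with limma and 117 to 1041 without 1 library. The number of all tested genes called higher was 1351 with DESeq2, 300 with the block and 23 to 1197 without 1 library. In the main edgeR fit it was 733, so DESeq2 called more genes higher over the whole table. The number of all tested genes that DESeq2 called lower is not given here, so its counts of lower genes have no such share beside them. The 3 isoform ratios kept their direction under every setting. Estimates near 0 changed sign for 4 of the 84 genes: Ndufs8 (0.017 and 0.017 with limma, 0.018 without vehicle 1, 0.056 without AEW 3, down to -0.094 without AEW 1), Cox4i2 (0.0045 and 0.0043 with limma, 0.047 without vehicle 1, 0.042 without AEW 2, down to -0.17 without vehicle 2), Ndufa4l2 (-0.0067 without AEW 2, -0.034 without AEW 3, up to 0.41 without AEW 1) and Cox6b2 (0.0024 without vehicle 1, 0.013 without AEW 2, 0.0020 without AEW 3, down to -0.60 without AEW 1). Pairing by mouse changed no call of the muscle isoforms. Cox4i2 and Cox6b2, the genes with the fewest counts (377 and 397 over 6 libraries), had SEs of 0.22 and 0.34. Whether depth set these SEs was not tested, and Cox6a2, with 36980 counts, had 0.22.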

Other observations

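Genes for protein import into mitochondria and for the mitochondrial ribosome, which serve the same organelle, had estimates near 0. Of 18 tested, 5 were below 0, 0 were lower and 1 was higher, beside 48.4%, 6.8% and 4.85% of tested genes. The median log2 fold change was 0.07, with within-mouse medians of 0.16, 0.11 and -0.09. The gene called higher was Tomm40, the channel of the outer membrane, at 56.9, 58.8 and 53.9 TPM in the vehicle libraries and 92.1, 71.0 and 83.0 TPM in the AEW libraries. Its log2 fold change was 0.48 ± 0.09 (SE), with an adjusted p of 0.0266 by edgeR, or 0.0576 with the mouse as a block, and it was called in 1 of 6 fits without 1 library. Mrpl3, a mitochondrial ribosome protein with the next smallest p, had 0.23 ± 0.08 (SE) and an adjusted p of 0.114.

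Some glycolysis genes differed in both directions. Of 20 tested, 6 were lower (30.0%, beside 6.8% of tested genes) and 2 higher, 5 and 2 with the block, and 0 in either direction without the vehicle library of mouse 1 or of mouse 3. Eno3, the muscle enolase, was at 1169, 1088 and 1523 TPM in the vehicle libraries and 454, 480 and 648 TPM in the AEW libraries. Its log2 fold change was -1.28 ± 0.19 (SE), with an adjusted p of 0.0131. Pgam1, the general phosphoglycerate mutase, was at 132, 145 and 138 TPM in the vehicle libraries and 208, 207 and 228 TPM in the AEW libraries, with no overlap. Its log2 fold change was 0.57 ± 0.09 (SE), with an adjusted p of 0.0145. The other genes called were Aldoa, Pfkm, Pgam2, Pygm and Gapdh, which were lower, and Eno1, which was higher. Both Eno3 and Pygm are also among the skeletal muscle markers. Gapdh (-0.62) is not a muscle form, and the general forms Pfkl (0.17) and Pfkp (0.13) did not pass the test.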
